A study of Caenorhabditis elegans with 54 samples.

Results

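The 9 aat genes of Caenorhabditis elegans, aat-1 to aat-9, encode proteins of the family of catalytic light chains of heteromeric amino acid transporters. They were taken by name, and all 9 stand in each of the 9 tables among the 20728 gene identifiers listed in any table. They were selected on measured values, namely the log2 ratios of ribosome-bound to total RNA in these same libraries, which differ between tissues. Those ratios are therefore given as a description, no p-value of an aat gene is printed, and counts of calls among them stand beside the share of all genes called, with nothing read from them. Libraries came from day 1 adults grown at 20 °C, in 18 groups of 3 replicates, 54 libraries in all. In 6 experiments RPL-22, a protein of the large ribosomal subunit, carried a tag by which ribosomes were pulled down (immunoprecipitation, IP), and the RNA so obtained was set against total RNA of that strain. The intestine strain (WBM1470, wbmIs131) drove the tagged copy from the nep-17 promoter, and the muscle strain (WBM1339, wbmIs118) drove it from the myo-3 promoter. Both neuron strains used the rab-3 promoter, neurons A being MSD473 (wbmls99) and neurons B being WBM1471 (wbmIs133). The soma strain (WBM1364, wbmIs119) used the eft-3 promoter, and the ubiquitous strain (MSD470, rpl-22(wbm58)) carried the tag on its own rpl-22 gene. In 3 gradient experiments ribosomes were separated on sucrose instead, as polysomes of MSD470, as pooled 60S, 80S and polysome fractions of MSD470, and as polysomes of wild-type Bristol N2, again each beside total RNA. Each tissue is thus represented by 1 strain, neurons by a pair, and no IP from an untagged strain was analysed here.

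Light chains of this family carry amino acids across the plasma membrane, mostly as exchangers, and in animals they usually reach the membrane bound to a single-pass glycoprotein, the heavy chain. C. elegans has a pair of heavy chain genes, atgp-1 and atgp-2. Work in frog oocytes showed exchange activity for AAT-1 and AAT-3 when expressed together with ATGP-2. AAT-1 is also known for kynurenine transport needed for kynurenic acid production in neurons. AAT-6 lies on the luminal membrane of the intestine, where the scaffold protein NRFL-1 holds it. AAT-9 carries aromatic amino acids without a heavy chain, and a reporter placed it in neurons and muscle.

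The deposited values are normalized counts, scaled separately in each table, so ratios were formed within a table as log2 of the normalized count plus 1, IP or gradient fraction minus total RNA. A gene is called higher or lower here at a Benjamini-Hochberg adjusted p under 0.05 by limma over all genes with a mean of at least 10 in the 6 libraries. Library sums ran from 16.5 to 85.8 with a median of 34.8, in units of 1e6 normalized counts. Genes listed at 0 numbered between 83 and 7896 per library, with 7896 (44.0%) in neurons A IP replicate 3 and 6112 (34.4%) in intestine IP replicate 2. In the intestine IP 13 of 13 intestine markers were called higher, in the muscle IP 12 of 12 body wall muscle markers, in the neurons A IP 11 of 12 and in the neurons B IP 12 of 12 neuron markers. Nothing in the labels tells if the 3 replicates of a group were grown apart, so errors and p-values measure only the spread between these libraries, which may be technical.

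In whole-animal total RNA the aat transcript with the highest median level was aat-9. Scaled to a library sum of 1e6 (per 1e6 below) and divided by the length of the longest transcript in kb, aat-9 had a median level of 18.3 over the 27 total RNA libraries, with a range of 2.59 to 36.6. Next in that order were aat-6 with a median level of 4.85, aat-3 with 3.68, aat-4 with 3.14, aat-5 with 2.38, aat-2 with 1.96 and aat-1 with 1.09. The lowest median levels were 0.604 for aat-7 and 0.275 for aat-8. As a share of the summed level of all 9 genes, aat-9 made up a median of 53.0% of total RNA and no other aat gene had a median above the 12.5% of aat-6. In neurons A total RNA replicate 3, aat-6 led instead, at 56.4% against 14.2% for aat-9. Because the tables were normalized separately, these levels rest on the scaling to 1e6.

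The IPs had another leading gene in each tissue. In the intestine IP aat-6 made up 62.2%, 65.0% and 53.8% of the summed aat level in the 3 libraries, against 11.05%, 15.4% and 5.55% in total RNA of that strain. In the muscle IP aat-5 made up 48.0%, 54.6% and 61.1%, against 5.78%, 7.60% and 7.16% in total RNA. There aat-3 came after it, at 25.6%, 26.3% and 20.1% in the muscle IP against 11.3%, 11.5% and 12.3% in total RNA. The neurons B IP was shared between aat-3, at 31.4%, 33.2% and 29.2%, and aat-5, at 31.4%, 27.4% and 25.3%. In total RNA of the neurons B strain aat-3 had 16.2%, 15.5% and 14.01% and aat-5 had 2.62%, 5.71% and 5.15%. A share within a library does not depend on how libraries are scaled, and each of these IP shares lay above all 3 of its total RNA shares. Neurons A IP replicates 1 and 2 were led by aat-3 and aat-5 as well, aat-3 at 31.3% and 35.4% and aat-5 at 27% and 39.0%. In neurons A IP replicate 3, the library with the most genes at 0, aat-1 alone made up 95.0%. The summed level of the 9 genes, per 1e6 and kb, was 52.8 to 60.7 in the intestine IP against 25.7 to 43.3 in its total RNA, and 64.9 to 92.6 in the neurons B IP against 41.4 to 60.7 in its total RNA.

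**Figure D1:**
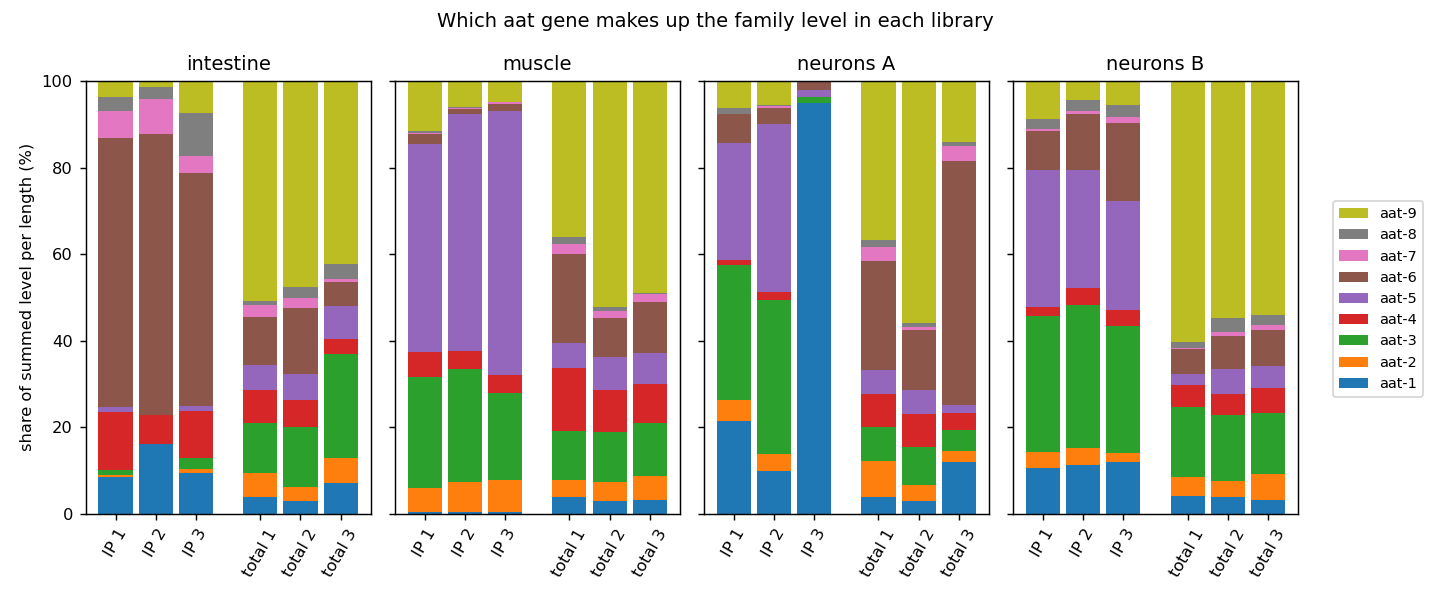
Share (%, y axis) of each aat gene in the summed level per length of the family, 1 stacked bar per library, with the 3 IP libraries left of the 3 total RNA libraries in each of the 4 tissue experiments. Total RNA bars are mostly led by aat-9, while aat-6 takes 53.8% to 65.0% of the intestine IP bars, aat-5 48.0% to 61.1% of the muscle IP bars, and aat-3 with aat-5 lead the neurons B IP bars.

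Ribosome-bound RNA of the intestine held 5 aat genes above total RNA. The leading one was aat-6 (WBGene00000007), on chromosome V, minus strand, 11466842 to 11470663 in WBcel235, with 8 exons in its longest transcript. Its normalized counts were 2410, 3042 and 1825 in the intestine IP against 111.4, 125.8 and 72.2 in total RNA, a log2 ratio of 4.55 ± 0.36 (SE, n = 3 each). All 3 IP libraries lay far above all 3 total RNA libraries, and 97.8% of genes tested in that table had a lower ratio. The scarcest aat transcripts of total RNA, aat-7 and aat-8, were also above it here. Counts of aat-7 (WBGene00000008, chromosome II, plus strand, 1386870 to 1391639) were 214.4, 335.4 and 124.4 in the intestine IP against 24.9, 15.9 and 6.49 in total RNA, log2 3.81 ± 0.71. Those of aat-8 (WBGene00000009, chromosome IV, minus strand, 3862033 to 3865044) were 110.3, 116.6 and 297.5 against 8.89, 18.9 and 40.3, log2 2.97 ± 0.75. For neither gene did IP and total RNA libraries overlap.

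The other genes above total RNA in the intestine were aat-1 and aat-4. For aat-1 (WBGene00000002, chromosome IV, minus strand, 9599178 to 9601695), the kynurenine transporter, counts were 326.8, 739.1 and 310.5 in the intestine IP against 37.5, 23.4 and 91.2 in total RNA, log2 3.26 ± 0.63. For aat-4 (WBGene00000005, chromosome IV, minus strand, 6272529 to 6275721) they were 530.0, 321.2 and 379.6 against 79.3, 51.7 and 44.8, log2 2.80 ± 0.44. Both were separate from total RNA in all 3 libraries. Together, 5 aat genes were called higher and 1, aat-9, lower, where 17.8% of all genes tested were called higher and 9.61% lower. When libraries were instead given the same sum (equal-sum scaling), the median gene of this table shifted by -1.15 on the log2 scale. Then aat-6 stood at 3.36 and aat-7 at 2.67, and the calls became 4 higher, without aat-8, and 2 lower, with aat-3 added. Of 13629 genes tested, equal-sum scaling called 1509 higher and 5484 lower. The aat-9 call was lost without IP replicate 1 or any 1 of the total RNA libraries, and the aat-8 call without IP replicate 3 or total RNA replicate 1 or 2.

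The 3 genes furthest above total RNA in muscle were low in the intestine IP. Normalized counts of aat-3 were 48.0, 0 and 95.3 in the intestine IP against 133.3, 130.9 and 359.6 in total RNA, log2 -3.47 ± 1.59. Those of aat-5 were 51.1, 0 and 37.8 against 61.5, 51.2 and 107.7, log2 -2.48 ± 1.47. For aat-2 they were 18.6, 0 and 36.37 against 55.5, 25.1 and 72.4, log2 -2.40 ± 1.39. None of these 3 was called, and for each of them the 0 stood in intestine IP replicate 2. Same-numbered IP and total RNA libraries deviated together in this experiment, though the labels give no pairing. With the replicate as a block aat-3 was called lower. Without IP replicate 2 their log2 ratios were -1.43 for aat-3, -0.66 for aat-5 and -0.82 for aat-2, still uncalled, while aat-6 kept 4.37 and aat-7 3.47.

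**Figure D2:**
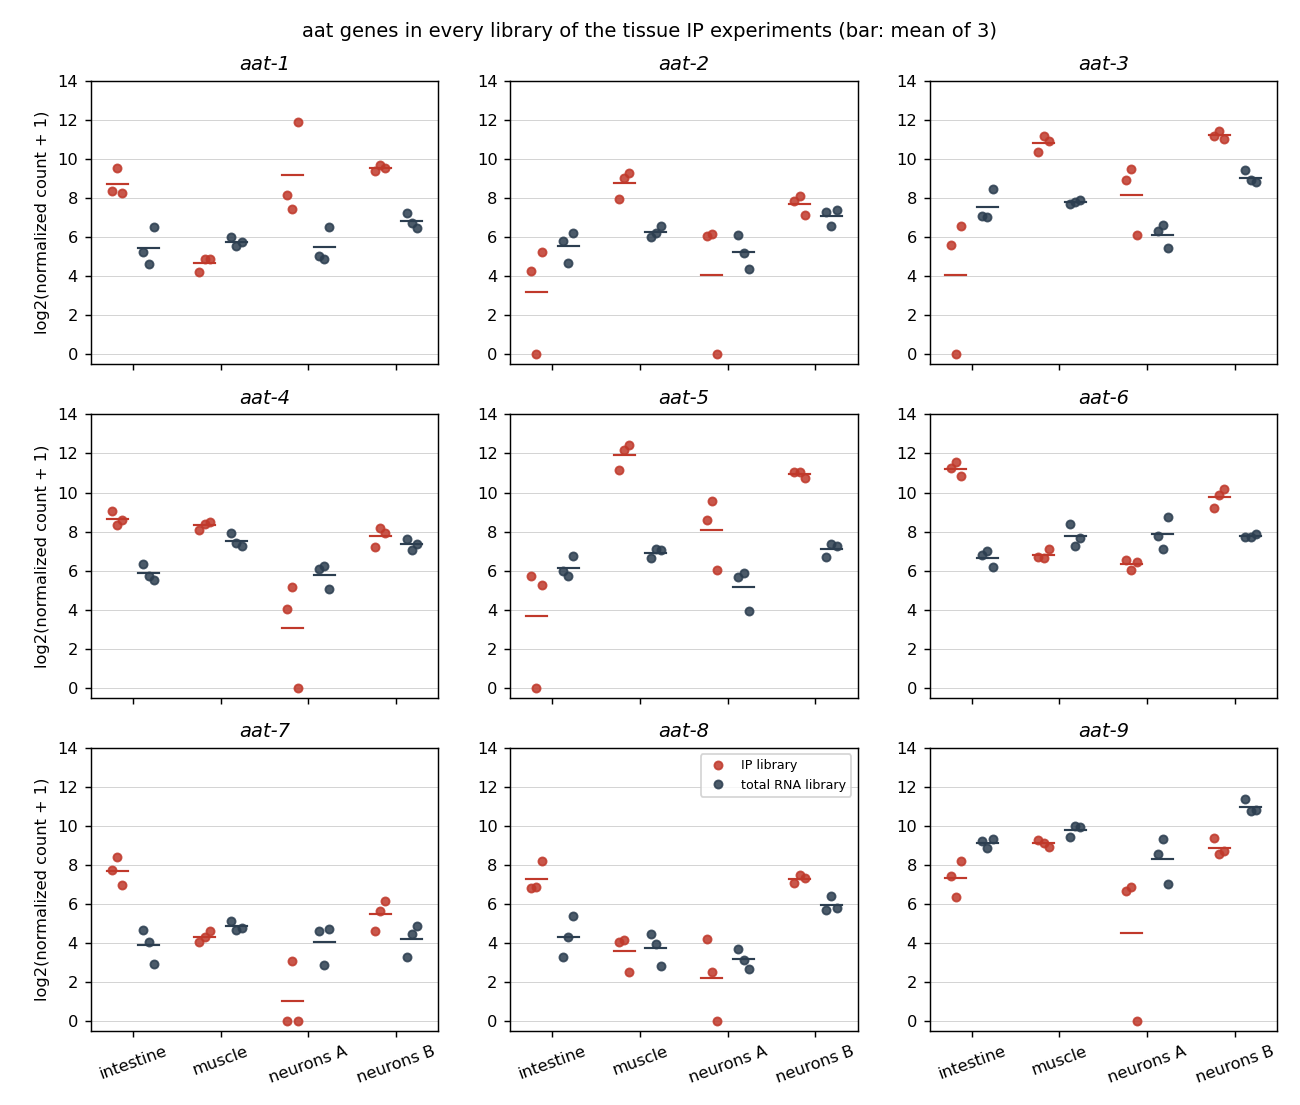
Each panel is 1 aat gene, with log2(normalized count + 1) on the y axis and the 4 tissue experiments on the x axis. Points are single libraries, IP (red) left of total RNA (dark), and a bar marks the mean of 3; points at 0 are libraries in which the gene is listed at 0, as aat-2, aat-3 and aat-5 are in 1 intestine IP library.

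Muscle ribosomes were richest in aat-5. This gene (WBGene00000006, chromosome I, minus strand, 2571740 to 2576020) had 2291, 4565 and 5519 normalized counts in the muscle IP against 99.8, 135.2 and 130.2 in total RNA, log2 4.99 ± 0.31. For aat-3 (WBGene00000004, chromosome X, plus strand, 2552260 to 2557736), an exchanger with ATGP-2, counts were 1313, 2364 and 1954 in the muscle IP against 210.7, 220.2 and 240.9 in total RNA, log2 3.02 ± 0.25. For aat-2 (WBGene00000003, chromosome V, minus strand, 9244402 to 9246360) they were 245.6, 530.4 and 626.4 against 63.1, 74.0 and 93.2, log2 2.5 ± 0.35. In each of the 3 genes every muscle IP library lay above every total RNA library, and 97.7% of genes tested had a lower ratio than aat-5. Under equal-sum scaling, which moved the median of all genes in this table by -1.37, they stood at 3.6 for aat-5, 1.63 for aat-3 and 1.12 for aat-2.

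Of the genes above total RNA in the intestine, aat-6 and aat-1 were under it in muscle. Counts of aat-6 were 102.0, 99.1 and 137.1 in the muscle IP against 334.7, 153.4 and 204.0 in total RNA, log2 -0.97 ± 0.31. Those of aat-1 were 17.3, 28.7 and 28.9 against 62.9, 46.4 and 53.7, log2 -1.11 ± 0.38. The ratio of aat-7 was -0.52 ± 0.44 and that of aat-8 -0.17 ± 0.71, neither called. For aat-4 the log2 ratio was 0.79 ± 0.25, from counts of 268.6, 334.7 and 359.7 in the muscle IP against 241.1, 167.1 and 154.6 in total RNA, but its direction turned to -0.60 under equal-sum scaling. In all, 4 aat genes were called higher and 3 lower in muscle, against 23.1% and 13.1% of all genes tested, and equal-sum scaling gave 3 higher and 5 lower. Of 14681 genes tested, equal-sum scaling called 1689 higher and 10452 lower. The 7 calls became 3 without muscle IP replicate 2 or total RNA replicate 3, and 4 without muscle IP replicate 3 or total RNA replicate 2. Of the other calls, aat-1 was lost whichever library was left out. Those of aat-4 and aat-9 were lost without replicate 2 or 3 of either kind, and that of aat-6 without replicate 1 of either kind, IP replicate 2 or total RNA replicate 3. The calls of aat-2, aat-3 and aat-5 held with any 1 library left out.

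In neurons B the gene furthest above total RNA was again aat-5. Its counts were 2137, 2152 and 1711 in the neurons B IP against 104.1, 165.5 and 153.6 in total RNA, log2 3.84 ± 0.26. For aat-1 they were 661.5, 826.1 and 746.6 against 152.7, 105.0 and 89.2, log2 2.71 ± 0.29, and for aat-3 2297, 2809 and 2124 against 694.0, 482.6 and 450.2, log2 2.17 ± 0.24. No IP library of these 3 genes overlapped a total RNA library. Of genes tested in that table, 83.4% had a lower ratio than aat-5, 78.0% than aat-1 and 74.3% than aat-3. For aat-2 the log2 ratio was 0.62 ± 0.38 with overlapping libraries and no call. In all 5 aat genes were called higher and 1 lower, where 38.7% of all genes tested were called higher and 32.6% lower.

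Of the genes above total RNA in the intestine, aat-6 and aat-8 were also above it in neurons B, as was aat-1. Counts of aat-6 were 583.4, 943.2 and 1146 in the neurons B IP against 210.1, 209.1 and 234.3 in total RNA, log2 1.97 ± 0.29, and those of aat-8 were 134.1, 176.0 and 157.9 against 51.3, 83.3 and 55.0, log2 1.32 ± 0.36. The ratio of aat-7 was 1.26 ± 0.61 and not called, though it was called higher without IP replicate 1. For aat-4 the log2 ratio was 0.43 ± 0.35, uncalled and with overlapping libraries. Markers of the intestine moved with them: 8 of 13 were called higher in the neurons B IP, their median log2 ratio was 1.17, and their summed level per 1e6 was 37710 to 53840 in the IP against 24460 to 29120 in total RNA. None of the 13 was at 0 in all 3 IP libraries. Their part in the ratios of aat-6, aat-7 and aat-8 was not tested.

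The other neuron strain gave wider spreads. In the neurons A IP aat-1 had 288.2, 174.0 and 3854 normalized counts against 32.2, 28.7 and 89.7 in total RNA, log2 3.70 ± 1.25. For aat-5 the counts were 391.6, 744.2 and 64.4 against 49.6, 58.4 and 14.5, log2 2.89 ± 1.12, and for aat-3 they were 488.8, 728.8 and 67.7 against 78.0, 98.9 and 42.5, log2 2.05 ± 1.02. In all 3 genes replicate 3 stood apart, high for aat-1 and low for aat-3 and aat-5, and aat-2, aat-4, aat-7, aat-8 and aat-9 were listed at 0 there. Of the 8 aat genes that passed the filter, 0 were called by limma, where 15.3% of all genes tested were called higher and 12% lower. An unadjusted limma p under 0.05 was had by 3 of them. The share of all genes at that unlike threshold was not counted, so nothing is read from the 3. Same-numbered IP and total RNA libraries deviated together in this experiment, though the labels give no pairing. With the replicate as a block aat-1 and aat-5 were called higher and aat-9 lower. Without IP replicate 3, aat-1 (2.33), aat-3 (3.09) and aat-5 (3.91) were called higher, none was called lower, and the log2 ratio of aat-2 was 0.87, against -1.16 with that library. Without IP replicate 2 only aat-7 was called, lower.

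Of the genes above total RNA in the intestine, aat-6 had every library below total RNA in neurons A. The log2 ratio of aat-6 was -1.53 ± 0.71, with counts of 91.0, 64.8 and 87.3 in the neurons A IP against 215.4, 136.0 and 434.2 in total RNA. For aat-7 it was -3.04 ± 1.24, with 0, 7.37 and 0 counts against 23.5, 6.36 and 25.0, and this gene passed the filter only through total RNA. Intestine markers had a median log2 ratio of -2.37 in this IP and 4 of 13 were called lower. Both the aat-6 ratio and the marker median thus had opposite signs in neurons A and neurons B, and the part of intestine RNA in the aat-6 ratio was not tested.

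**Figure D3:**
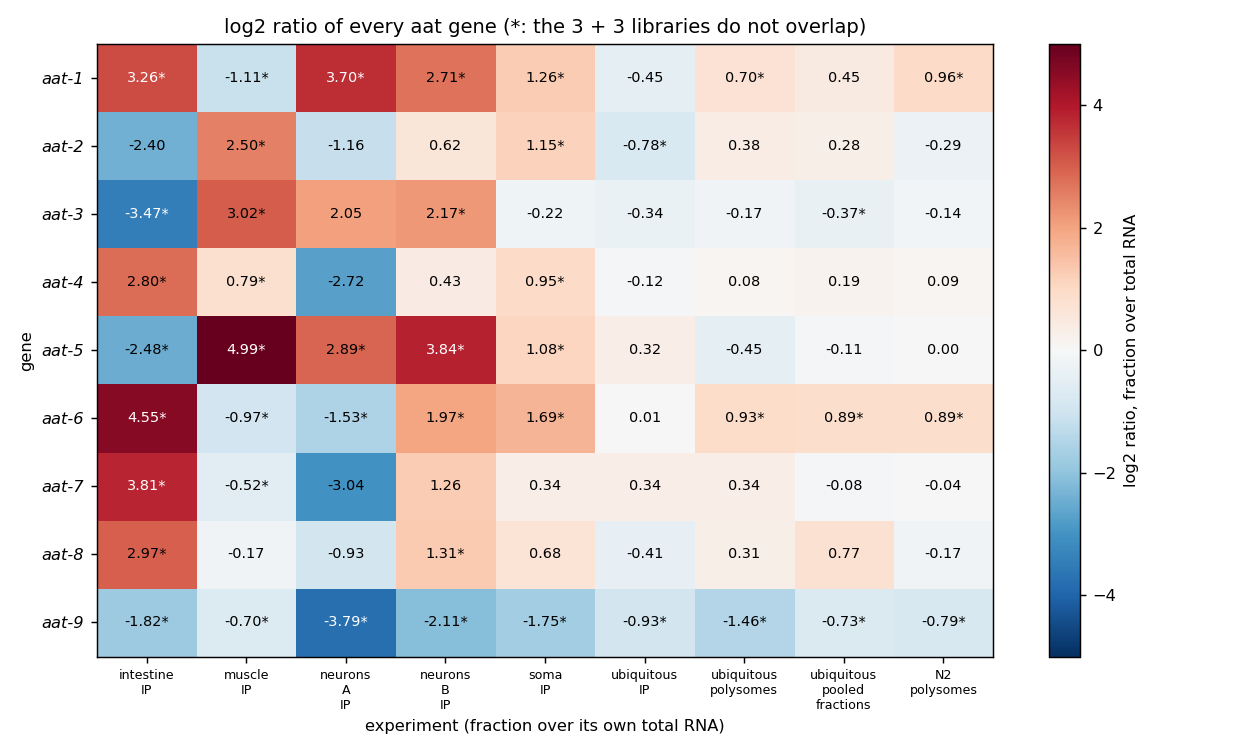
Log2 ratio of each aat gene (rows) in each experiment (columns), IP or gradient fraction over its own total RNA, from blue (lower) to red (higher); an asterisk marks ratios whose 3 fraction libraries do not overlap the 3 total RNA libraries. The 4 tissue columns span -3.79 to 4.99, while the ubiquitous IP and gradient columns hold no value above 0.96.

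Where the tag or the gradient took in more of the body, the spread among the aat genes was smaller. In the soma IP aat-6 led with 1671, 1632 and 1839 normalized counts against 616.6, 575.7 and 420.3 in total RNA, log2 1.69 ± 0.29. The log2 ratios of aat-1 (1.26), aat-2 (1.15), aat-5 (1.08) and aat-4 (0.95) were also called higher, aat-9 was called lower, and 25.1% of all genes tested were called higher and 32.7% lower. For aat-3, above total RNA in muscle and neurons B, the soma libraries overlapped, at a log2 ratio of -0.22 ± 0.30. Its counts were 318.6, 335.2 and 404.1 in the soma IP against 328.9, 431.1 and 485.8 in total RNA. Without soma total RNA replicate 2 only aat-1, aat-6 and aat-9 were called, aat-2 was lost also without IP replicate 1, and aat-4 without IP replicate 3. In the ubiquitous IP the ratios of all aat genes lay between -0.93 and 0.34, 0 were called higher and 2 lower, aat-9 and aat-2 (-0.78 ± 0.22), against 16.9% and 20.4% of all genes tested. Of these only aat-9 was called without ubiquitous IP replicate 1 or 2 or total RNA replicate 1, and neither under equal-sum scaling, which moved the median of all genes by 0.24. Without total RNA replicate 3, aat-3 was called lower as well.

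The 3 gradient experiments gave the same pair of calls, aat-6 higher and aat-9 lower. Polysomes of N2 had 673.0, 616.3 and 520.6 normalized counts of aat-6 against 353.2, 347.3 and 277.6 in total RNA, log2 0.89 ± 0.15. Polysomes of the ubiquitous strain gave a log2 ratio of 0.93 ± 0.21 for aat-6, and its pooled fractions 0.89 ± 0.16. Libraries of aat-6 did not overlap in any of the 3, which held for 20.5% of 14276 genes in the higher direction. Intestine markers were also above total RNA, with median log2 ratios of 0.84 in polysomes and 0.46 in pooled fractions of the ubiquitous strain and 1.00 in N2 polysomes, and their part in the aat-6 ratio was not tested. The third call in N2 polysomes was aat-1, with 76.8, 91.2 and 123.0 counts against 50.8, 37.2 and 60.0 in total RNA, log2 0.96 ± 0.25. Under equal-sum scaling aat-1 was no longer called there and aat-3 was called lower, and in ubiquitous polysomes aat-5 was called lower as well. Called genes were 1 higher and 1 lower in polysomes of the ubiquitous strain (28.4% and 30.3% of all genes tested), 1 and 1 in its pooled fractions (20.6% and 23.1%) and 2 and 1 in N2 polysomes (33.6% and 33.9%). Leaving out fraction replicate 1 added aat-1 as higher in ubiquitous polysomes and aat-2 as higher in pooled fractions, and leaving out fraction replicate 3 added aat-2 as lower in N2 polysomes. In the pooled fractions aat-8 passed the filter only through the fraction libraries.

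The member with the highest median level in total RNA, aat-9, had fraction values below those of total RNA in every experiment. This gene (WBGene00000010, chromosome I, minus strand, 11388682 to 11396662) had 172.1, 80.1 and 296.6 normalized counts in the intestine IP against 606.7, 458.9 and 651.1 in total RNA, log2 -1.82 ± 0.51. In muscle, counts were 614.9, 548.3 and 487.8 in the IP against 694.0, 1032 and 989.9 in total RNA, log2 -0.70 ± 0.23. In neurons B they were 664.5, 374.7 and 420.6 against 2666, 1764 and 1799, log2 -2.11 ± 0.28. The ratio was -3.79 ± 1.90 in neurons A (-1.53 without IP replicate 3), -1.75 ± 0.36 in soma, -0.93 ± 0.16 in the ubiquitous IP, -1.46 ± 0.35 in ubiquitous polysomes, -0.73 ± 0.19 in ubiquitous pooled fractions and -0.79 ± 0.12 in N2 polysomes. Every fraction library lay below every total RNA library in all 9 experiments, and the ratio was below 0 in all 9 under equal-sum scaling too. Of 11771 genes tested in all 9, 322 (2.74%) did the same in the lower direction and 31 (0.263%) in the higher.

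Germline and oocyte markers were low beside aat-9. Called lower were 10 of 10 such markers in the intestine IP, 6 in the muscle IP, 8 for neurons A, 10 for neurons B, 10 for soma, 8 in the ubiquitous IP, 9 in ubiquitous polysomes, 7 in pooled fractions and 8 in N2 polysomes. Their median log2 ratios were -1.63 for the intestine IP, -0.72 for the muscle IP, -3.29 for neurons A, -2.44 for neurons B, -2.42 for soma, -0.92 for the ubiquitous IP, -1.67 in ubiquitous polysomes, -0.66 in pooled fractions and -1.05 in N2 polysomes. In N2 polysomes 1 of the 10 was called higher. Their summed level per 1e6 in the ubiquitous polysomes was 2705 to 5050, against 12850 to 13690 in total RNA, and no marker was at 0 in all fraction libraries of an experiment. The 6 sperm markers went the other way in the gradients. Called higher were 5 in ubiquitous polysomes (median log2 ratio 1.69), 5 in pooled fractions (0.99) and 6 in N2 polysomes (1.95). Called lower were 5 in the muscle IP, 3 for neurons A, 5 for neurons B (1 higher) and 6 for soma. In the intestine and ubiquitous IPs 0 were called in either direction, at median log2 ratios of -1.23 and 0.30. In whole-animal total RNA, fewer cells of a type and less RNA per cell cannot be told apart. In the IPs, a ratio to it cannot tell the cells taken in from the ribosome load of a transcript. The part of germline RNA in the aat-9 ratio was not tested. Of 2089 exonic nt of aat-9, 70 are shared with png-1, a coding gene on the opposite strand that encodes a peptide N-glycanase. Whether counting used strand is not given in the sources used here. The log2 ratios of png-1 ran from -0.42 in soma to 0.63 in muscle.

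**Figure D4:**
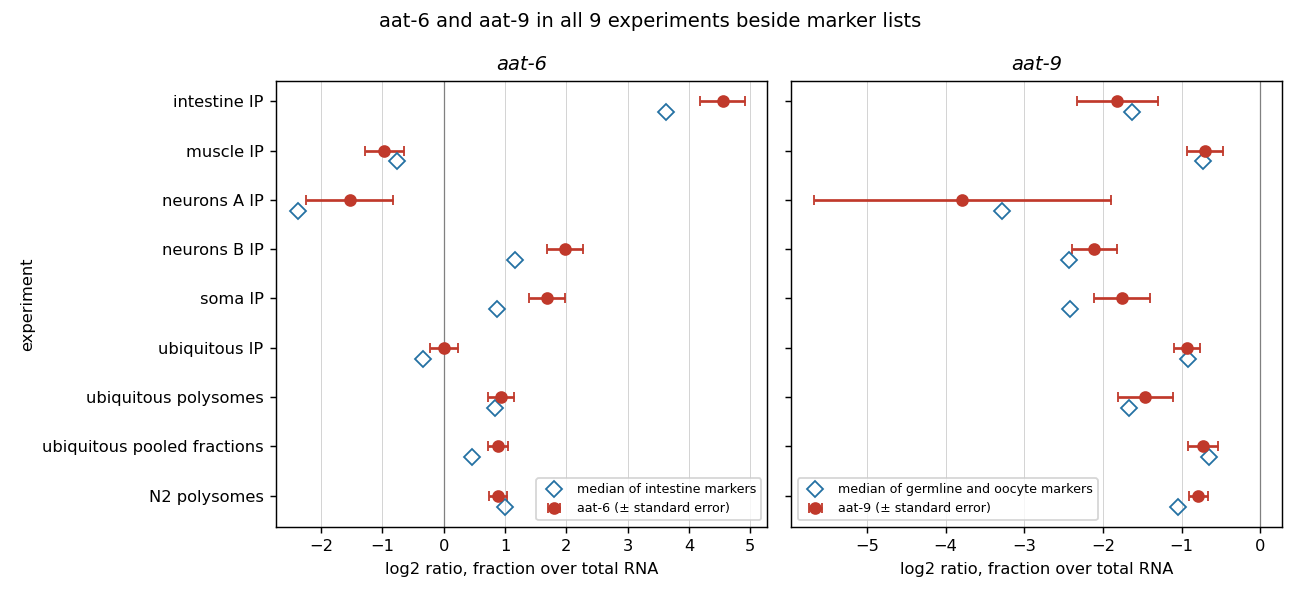
Log2 ratio, fraction over total RNA, of aat-6 (left) and aat-9 (right) in the 9 experiments, red points with bars of 1 standard error, beside the median log2 ratio of 13 intestine markers or 10 germline and oocyte markers (open diamonds). The aat-9 points all lie below 0, from -0.70 to -3.79, and the aat-6 points run from -1.53 in neurons A to 4.55 in the intestine.

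Calls and library overlap do not always coincide, so the aat genes whose 3 fraction libraries were separate from the 3 total RNA libraries were counted too, again as a description. Above total RNA stood 5 in the intestine IP (22.5% of all genes tested), 4 in the muscle IP (27.3%), 2 for neurons A (19.7%), 5 for neurons B (40.5%) and 5 for soma (31.5%). Below it stood 3 in the intestine IP (26.2%), 4 in the muscle IP (22.7%), 2 for neurons A (31.7%), 1 for neurons B (34.6%) and 1 for soma (34%). The ubiquitous IP had 0 separate above (24.1%) and 2 below (26.1%). In the gradients 2 were separate above and 1 below in ubiquitous polysomes (34.1% and 35.3%), 1 and 2 in pooled fractions (25.9% and 27.2%), and 2 and 1 in N2 polysomes (35.8% and 35.9%).

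Ordered over the 9 experiments, the top tissue was the intestine for 4 aat genes, muscle for 4 (for aat-9 as the least negative ratio) and neurons A for aat-1. The order describes the values the genes were chosen by, and a gap over 2 combined standard errors is given as a measure of spread, not as a test. The intestine ratio stood that far above the next for aat-6 (4.55 against 1.97 in neurons B), aat-7 (3.81 against 1.26 in neurons B) and aat-4 (2.80 against 0.95 in soma). The muscle ratio stood that far above the next for aat-5 (4.99 against 3.84 in neurons B), aat-3 (3.02 against 2.17 in neurons B) and aat-2 (2.5 against 1.15 in soma). The muscle order depended on the scaling of the separately normalized tables: under equal-sum scaling aat-5 was at 3.6 in muscle against 3.43 in neurons B, aat-3 at 1.63 in muscle against 1.76 in neurons B, and aat-2 at 1.12 in muscle against 1.25 in soma. Muscle was not on top for aat-9 either under that scaling, at -2.09 against -0.68 in the ubiquitous IP. The intestine stayed on top for aat-6 (3.36 against 1.79 in soma), aat-7 (2.67 against 0.87 in neurons B) and aat-4 (1.62 against 1.05 in soma). For aat-1 the top 3, neurons A, intestine and neurons B, did not differ beyond their spread, and neurons B stood above soma beyond it. Neighbours in the order of aat-8 and of aat-9 never differed beyond their spread.

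Among themselves the aat genes with the closest patterns over the 6 IP experiments were aat-4 and aat-7, at a root mean square difference of 0.83 log2 units, then aat-6 and aat-7 at 0.95. The muscle and neuron genes aat-3 and aat-5 were 1.32 apart. Out of 11589 genes compared, those nearest to aat-6 were clec-80 at 0.13, M02H5.8 at 0.16 and daf-22, a peroxisomal thiolase gene, at 0.17. Nearest to aat-9 were Y5F2A.4 and ntp-1 at 0.19 and T07F10.3 at 0.20. Nearest to aat-5 were sup-9, a potassium channel subunit gene, at 0.29, F39H12.3 at 0.35 and zig-1 at 0.42. Nearest to aat-3 were glt-4, a glutamate transporter gene, at 0.36, Y59C2A.1 at 0.36 and cex-1 at 0.43. Nearest to aat-7 were scav-4 at 0.30, the ABC transporter gene pgp-1 at 0.31 and pmp-4 at 0.33, and to aat-4 F31D4.8 at 0.20, cyp-13A2 at 0.34 and F13H10.8 at 0.35. Nearest to aat-1 were K01F9.2 at 0.47 and valv-1 and twk-26 at 0.50, and to aat-2 R06A10.4 at 0.39, zipt-13 at 0.60 and C23F12.4 at 0.63. These distances rest on 6 ratios each and aat-8 was not among them, since it missed the filter in 2 of the IP tables.

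Both heavy chain genes rose where aat-3 and aat-5 lead. In the muscle IP atgp-1 had 2821, 5198 and 4743 normalized counts against 477.7, 515.9 and 466.8 in total RNA, log2 3.08 ± 0.25 (limma, adjusted p = 1.7e-06), and atgp-2 had 3026, 3375 and 2678 against 713.9, 653.6 and 739.9, log2 2.10 ± 0.19 (adjusted p = 5.35e-06). In the neurons B IP atgp-1 had 4969, 6344 and 5893 counts against 270.7, 685.0 and 527.2, log2 3.63 ± 0.33 (adjusted p = 6.22e-06). There atgp-2 had 3454, 3943 and 4167 counts against 1014, 726.0 and 826.5, log2 2.18 ± 0.22 (adjusted p = 1.32e-05). All of these libraries were separate from total RNA, and the 4 calls held in every alternative fit. In neurons A the log2 ratios were 2.57 ± 0.72 for atgp-1 (adjusted p = 0.0385) and 2.68 ± 0.70 for atgp-2 (adjusted p = 0.0301). Both were lost there when any library other than IP replicate 3 was left out, with adjusted p up to 0.115 and 0.08, and under equal-sum scaling, with 0.142 and 0.0784.

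Of the heavy chain genes only atgp-2 was called in the intestine by the main fit, as lower. Counts of atgp-2 were 119.5, 28.7 and 128.5 in the intestine IP against 353.9, 292.5 and 379.8 in total RNA, a fall by 2.14 ± 0.62 on the log2 scale (adjusted p = 0.0374). Counts of atgp-1 were 831.9, 408.7 and 1116 against 222.8, 225.9 and 535.3, log2 1.27 ± 0.51 (adjusted p = 0.104), with overlapping libraries. Same-numbered libraries deviated together in this experiment, though the labels give no pairing. With the replicate as a block the adjusted p was 0.0107 for atgp-2 and 0.0137 for atgp-1, so that both passed. The atgp-2 call was lost without IP replicate 1 (adjusted p = 0.0529) or without total RNA replicate 1 (0.13), 2 (0.0915) or 3 (0.0896). The atgp-1 ratio passed without IP replicate 2 (0.0285) or total RNA replicate 3 (0.0487). Differences between tissues, and between these genes, were not tested.

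The scaffold gene nrfl-1 had 4047, 637.6 and 4050 counts in the intestine IP against 522.4, 227.4 and 456.1 in total RNA, log2 2.53 ± 0.73 (adjusted p = 0.0364), and in the soma IP the log2 ratio was 1.66 ± 0.29 (adjusted p = 0.0015). The intestine call was lost under equal-sum scaling (adjusted p = 0.208) and without IP replicate 1 (0.116) or 3 (0.0777) or total RNA replicate 1 (0.0749), 2 (0.112) or 3 (0.0665). In neurons B its ratio was 0.39 ± 0.37 (adjusted p = 0.357), which passed without total RNA replicate 1 (0.0128). In muscle it was -0.16 ± 0.19 (adjusted p = 0.532) and passed as lower under equal-sum scaling (0.000229).

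Of the heavy chain genes atgp-2 rose in soma, by 0.87 ± 0.32 (adjusted p = 0.039), which was lost without soma IP replicate 1 (0.062) or 2 (0.141) or total RNA replicate 1 (0.133) or 2 (0.0689). The soma ratio of atgp-1 was 0.33 ± 0.27 (adjusted p = 0.297). In N2 polysomes atgp-1 (0.77 ± 0.16, adjusted p = 0.000539) and atgp-2 (0.64 ± 0.12, adjusted p = 0.000258) rose, and the atgp-2 call was lost under equal-sum scaling (0.0647). There nrfl-1 rose by 0.54 ± 0.12 (adjusted p = 0.00113), also lost under equal-sum scaling (0.418). In ubiquitous polysomes atgp-1 (0.47 ± 0.17, adjusted p = 0.0412) and atgp-2 (0.56 ± 0.15, adjusted p = 0.013) rose, and both were lost under equal-sum scaling (0.219 and 0.182) and without total RNA replicate 1 (0.121 and 0.0641) or 3 (0.162 and 0.0699). The atgp-1 call there was lost also without polysome replicate 2 (0.0676) or 3 (0.0576), and nrfl-1 passed without polysome replicate 1 (0.00267). In the ubiquitous IP atgp-2 fell by 0.52 ± 0.14 (adjusted p = 0.0182), a call lost under equal-sum scaling (0.409) and without any 1 of the 3 IP libraries (0.0504 to 0.0936).

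**Figure D5:**
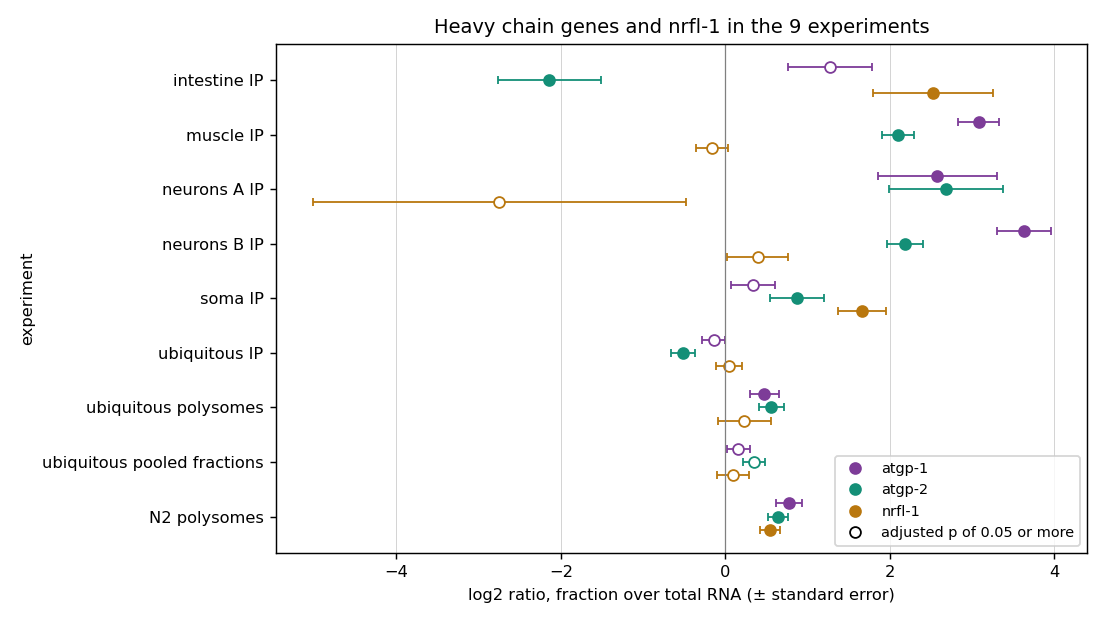
Log2 ratio, fraction over total RNA, with bars of 1 standard error, of the heavy chain genes atgp-1 and atgp-2 and of nrfl-1 in the 9 experiments; filled points have an adjusted p under 0.05 (limma) and open points do not. In muscle and neurons both heavy chain genes lie between 2.10 and 3.63, while in the intestine atgp-2 is at -2.14 and nrfl-1 at 2.53.

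Other genes of amino acid and peptide transport were counted on a list of 34 genes, 32 with an identifier, that includes the heavy chains and nrfl-1 but no aat gene. Differences between tissues were not tested, and each count stands beside the share of all genes called without equal-sum scaling. Counts under equal-sum scaling, in parentheses, do not belong beside those shares. That scaling called 1509 higher and 5484 lower of 13629 genes in the intestine IP, and 1689 and 10452 of 14681 in the muscle IP. Its calls of all genes in each experiment are given with the processing. In the intestine 4 of 27 measured were called higher and 2 lower, against 17.8% and 9.61% of all genes (2 and 11 under equal-sum scaling, 11 in all with the replicate block), with a median log2 ratio of -1.58 against -0.42 for all genes. The largest rises were slc-36.2 (4.26 ± 0.37, adjusted p = 0.000217) and pept-1, the intestinal peptide transporter (3.45 ± 0.38, adjusted p = 0.000494). The falls were atgp-2 and snf-3, the betaine transporter gene (-1.58 ± 0.45, adjusted p = 0.0341, up to 0.154 with 1 library left out). The 6 calls became 2 without IP replicate 1 or total RNA replicate 1 and 3 without total RNA replicate 2.

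In muscle 8 of 31 were called higher and 5 lower, against 23.1% and 13.1% of all genes (7 and 23 under equal-sum scaling), with a median of -0.40 against -0.14 for all genes. The rises were led by snf-11, the GABA transporter gene, at 5.11 ± 0.34 (adjusted p = 3.24e-07), and slc-36.3 at 4.69 ± 0.32 (adjusted p = 3.73e-07). The largest falls were the glutamate transporter gene glt-3 at -1.26 ± 0.42 (adjusted p = 0.0393, up to 0.141 with 1 library left out) and snf-9 at -1.04 ± 0.27 (adjusted p = 0.0131, up to 0.061).

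In neurons B 10 of 29 were called higher and 13 lower, against 38.7% and 32.6% of all genes, with a median of 0.21 against 0.10 for all genes, led by the vesicular glutamate transporter gene eat-4 at 6.62 ± 0.35 (adjusted p = 1.38e-07) and the vesicular GABA transporter gene unc-47 at 6.04 ± 0.38 (adjusted p = 4.15e-07). Falls were led by pept-2 at -3.40 ± 0.50 (adjusted p = 0.00018) and glt-3 at -2.92 ± 0.48 (adjusted p = 0.000402). In neurons A 6 of 27 were called higher and 3 lower, against 15.3% and 12% of all genes (1 and 2 under equal-sum scaling), with a median of -2.67 against -0.80, and unc-47 (7.61 ± 1.10, adjusted p = 0.00436) and eat-4 (5.66 ± 1.47, adjusted p = 0.0301, up to 0.0877 with 1 library left out) again led. The 9 calls became 17 without IP replicate 3, 3 without IP replicate 1 or 2 or total RNA replicate 3, and 1 without total RNA replicate 1 or 2. The falls were led by snf-5 (-3.44 ± 0.59, adjusted p = 0.00757, up to 0.0648) and pept-1 (-3.31 ± 0.89, adjusted p = 0.0335, up to 0.169).

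In soma 13 of 32 were called higher and 5 lower, against 25.1% and 32.7% of all genes, with a median of 0.47 against -0.09 for all genes, and in the ubiquitous IP 1 of 30 higher and 10 lower, against 16.9% and 20.4% (1 and 2 under equal-sum scaling), with a median of -0.29 against 0.01. The 18 soma calls became 11 without IP replicate 3 and 10 without total RNA replicate 2, and the 11 ubiquitous IP calls became 6 without any 1 IP library and 7 without total RNA replicate 2. In the gradients the counts were 7 higher and 3 lower of 31 in polysomes of the ubiquitous strain, against 28.4% and 30.3% of all genes (2 and 3 under equal-sum scaling), 2 and 3 of 31 in its pooled fractions, against 20.6% and 23.1% (1 and 2 under equal-sum scaling), and 12 and 3 of 30 in N2 polysomes, against 33.6% and 33.9% (5 and 6 under equal-sum scaling). The 10 calls in ubiquitous polysomes became 6 without total RNA replicate 1 and 5 without total RNA replicate 3, and the 5 in pooled fractions became 2, 3 and 0 without total RNA replicate 1, 2 and 3. By size, slc-36.2 led in all 3 gradients, at 1.06 ± 0.18, 0.50 ± 0.17 and 1.08 ± 0.14, and snf-6 fell most in all 3, by 2.54 ± 0.51, 0.95 ± 0.31 and 1.71 ± 0.16.

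Genes of amino acid sensing, 12 such as raga-1, let-363 and sesn-1, were counted in the same way against the shares of all genes just given, and all 12 were measured in each experiment. Counts under equal-sum scaling, in parentheses, again do not belong beside those shares. In the muscle IP that scaling called 1689 of 14681 genes higher and 10452 lower. Called higher and lower were 0 and 1 in the intestine IP (0 and 4 under equal-sum scaling), 2 and 0 in the muscle IP (0 and 10), 0 and 2 for neurons A (0 and 1), 2 and 8 for neurons B (2 and 9) and 0 and 7 for soma (0 and 7). The counts were 0 and 5 in the ubiquitous IP (0 and 2), 0 and 8 in ubiquitous polysomes (0 and 7), 0 and 6 in pooled fractions (0 and 5) and 1 and 8 in N2 polysomes (0 and 10).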

How the data were processed

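RNA was sequenced from an IP or gradient fraction and from total RNA in 9 experiments of 6 libraries. Tools named in the submitters' processing notes are DESeq2 1.30.1, kallisto 0.46.1 and R 4.0.4, and the build named is ce11; their roles are not given in the sources used here. For each library the authors deposited a signal, the normalized read count per gene, scaled within its own table, which can hide or create a shift common to all genes. The authors' deposited log2 fold changes were used only as an alternative. Whole reads were not recovered, so depth is given as library sums.

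From these values limma-trend (limma 3.58.1, R 4.3.3) was run on log2(normalized count + 1) per table, two-sided, for genes averaging 10 or more, and the script was tested on simulated data. Tables and plots used Python 3.11.15, numpy 2.4.6, pandas 2.3.3 and matplotlib 3.10.9. Positions and transcript lengths are from Ensembl release 115 (WBcel235, the assembly also called ce11).

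Members and lists were chosen with earlier results of these data known. All 9 aat genes were named, the 2 largest called changes per direction of the transport list, and the 3 nearest patterns; nrfl-1 and both heavy chain genes were described throughout. Same-numbered libraries deviated together, with every correlation over 0.1, in intestine (lowest 0.304), neurons A (0.313) and ubiquitous IP (0.187), and not in the other 6. The labels do not say that equal numbers pair libraries. In neurons B and soma too, each of the 3 IP libraries correlated best with its own number. The main fit used no block. Alternatives were pseudocounts of 0.5 and 5, no filter, equal-sum scaling, a replicate block and each library left out. The series description gives strain WBM1471 for the intestine too; the sample labels were followed.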

Additional observations from a re-analysis of the deposited data

Results flagged for a closer look

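Among the 4 tissue IPs, aat-1, aat-3, aat-5, aat-6 and aat-7 had every IP library above every total RNA library in at least 1 experiment. In at least 1 other they had every IP library below every total RNA library. How many of all genes do so was not counted, so nothing is read from it. The largest such gap was that of aat-5, 7.47 log2 units between the muscle ratio (4.99) and the intestine ratio (-2.48). For aat-3 it was 6.49 between muscle (3.02) and intestine (-3.47). In both genes the intestine ratio includes a library listed at 0. The gap of aat-6 was 6.08 between intestine (4.55) and neurons A (-1.53), that of aat-1 4.81 between neurons A (3.70) and muscle (-1.11), and that of aat-7 4.34 between intestine (3.81) and muscle (-0.52). Without neurons A IP replicate 3 the neurons A ratio of aat-1 was 2.33. Of the lower sides, aat-5 in intestine was barely separate, with a highest IP count of 51.05 against a lowest total RNA count of 51.15. So was aat-7 in muscle, with 23.96 against 24.04. These differences between experiments were not tested.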

How the results depend on the processing

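Of 79 aat ratios that passed the filter, all kept their direction where called under pseudocounts of 0.5 and 5. They moved by less than the spread there. The same held with the replicate block and with each library left out, but that outcome was fixed in advance. A block leaves each ratio as it was, and leaving out 1 of 3 libraries cannot move a ratio beyond the spread used. Without neurons A IP replicate 3, aat-2 went from -1.16 to 0.87 and aat-9 from -3.79 to -1.53. Against the authors' deposited log2 fold changes 78 moved by less than the spread and 1 by more. Under equal-sum scaling 32 moved by more than that and 1 reversed, aat-4 in muscle at -0.60. Equal-sum scaling moved the median of all genes by -1.37 (muscle) to 0.24 (ubiquitous IP). It left 0 aat calls in the ubiquitous IP and gave 13 transport list calls in the intestine IP, 30 in the muscle IP, 3 for neurons A, 3 in the ubiquitous IP, 5 in ubiquitous polysomes and 3 in pooled fractions. Of all genes, it called 1509 higher and 5484 lower of 13629 in the intestine IP. The numbers were 1689 and 10452 of 14681 in muscle, 1814 and 1968 of 14483 for neurons A, and 5532 and 6463 of 16572 for neurons B. They were 4213 and 5012 of 16031 for soma and 2227 and 1032 of 13853 in the ubiquitous IP. In the gradients they were 2968 and 4917 of 14651 (ubiquitous polysomes), 2774 and 3190 of 14824 (pooled fractions) and 3018 and 6413 of 14705 (N2). With the replicate block, aat calls were 4 in muscle, where same-numbered libraries did not deviate together, and 3 in neurons A. Intestine transport list calls were then 11, and the intestine aat-3 and atgp-1 calls also changed. The block also called aat-7 higher in neurons B, where not every correlation of same-numbered libraries was over 0.1. A pseudocount of 5 gave 15 transport list calls in neurons A. The cause was not tested.

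With 1 library left out, aat calls ranged over 4 to 6 in intestine, 3 to 5 in muscle, 0 to 3 for neurons A, 6 to 7 for neurons B, 3 to 6 for soma, 1 to 3 in the ubiquitous IP, 2 to 3 in ubiquitous polysomes, 2 to 3 in pooled fractions and 3 to 4 in N2 polysomes. Transport list calls ranged over 2 to 9, 9 to 16, 1 to 17, 19 to 25, 10 to 17, 6 to 14, 5 to 14, 0 to 4 and 13 to 19 in that order. Read depth per gene is unknown, so no counting interval is given, and aat-8 lies near the filter.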
